A study of Mus musculus with 6 samples.

Results

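The genes described here are 9 genes of pulmonary surfactant and of the alveolar type II cell, the cell that makes it: Sftpa1, Sftpb, Sftpc, Sftpd, Abca3, Napsa, Lamp3, Lpcat1 and Slc34a2. They were read from every probe set, a group of short array probes, that the platform annotation gives to exactly 1 of them. This gave 17 probe sets for 8 of the 9 genes, out of 45037 tested probe sets and 18193 genes with a probe set of their own. Lamp3, which encodes a membrane protein of the lamellar body, is read only by a probe set it shares with Ppid, so no value is given for it. The probe set with the highest mean signal stands for its gene and is called the lead.

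Whole-lung RNA was hybridized for 3 LC-HFD mice and 3 LC-RD mice, with 1 Affymetrix mouse array for each mouse. All 6 were male CC10-rtTA/tet-O-EGFR-L858R mice on a C57BL/6 background, in which doxycycline (Dox) switches on a mutant human EGFR in lung epithelium under the CC10 promoter, a club cell promoter, and the mouse probes were not read for the human transgene. LC-HFD (HFD+Dox in the labels) mice ate a high-fat diet with 60% of energy from fat and LC-RD (RD+Dox) mice a regular diet, both with Dox, so the transgene and Dox are shared and the comparison is that of the diets in tumor-bearing lungs. The paper's results give a start at 6 weeks of age, 2 weeks of diet and then 8 weeks of diet with Dox. Its methods section gives an age of 6 to 8 weeks. The sample labels instead give diet until week 8 followed by 7 weeks of Dox. They also give 625 ppm Dox mixed into the food and a 2 mg/ml solution with 1% sucrose to drink. In whole-lung RNA, a change in the number of type II or tumor cells and a change in RNA per cell cannot be told apart. The paper reports a heavier tumor burden on histology in LC-HFD than in LC-RD lungs, and its part in the member values was not tested.

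Surfactant is a film of phospholipid and protein that lowers surface tension where air meets the alveolar wall. Type II cells assemble it in lamellar bodies, secrete it and take part of it up again, while alveolar macrophages break down the rest. SP-B and SP-C are small hydrophobic proteins that spread the lipid, and SP-A and SP-D are collectins that bind microbes. NKX2-1, with FOXA and C/EBP factors, drives the surfactant protein genes in lung epithelium.

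The regions just upstream of Sftpa1, Sftpb and Abca3 are shown because Abca3 was the only gene whose lead passed the test, and because the leads of Sftpa1 and Sftpb, which did not pass, had LC-HFD and LC-RD values that did not overlap. Each is the RefSeq promoter window of 250 bases before the transcription start and 50 after it, in build GRCm38.p6 on the plus strand, at chr14:41131538-41131837 for Sftpa1, chr6:72304360-72304659 for Sftpb and chr17:24351773-24352072 for Abca3. Capitals mark matches on either strand to the TATA box, searched as TATAAA. They also mark the core site of NKX2-1, searched as CTCAAG, and that of the FOXA factors, searched as TGTTTAC. The C/EBP core was searched as TTNNGNAA.
Sftpa1: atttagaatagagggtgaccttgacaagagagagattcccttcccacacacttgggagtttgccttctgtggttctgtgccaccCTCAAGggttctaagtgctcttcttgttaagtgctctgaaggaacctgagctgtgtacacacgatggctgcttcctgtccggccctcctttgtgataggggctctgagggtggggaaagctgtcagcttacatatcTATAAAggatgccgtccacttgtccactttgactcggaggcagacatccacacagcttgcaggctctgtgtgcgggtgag
Sftpb: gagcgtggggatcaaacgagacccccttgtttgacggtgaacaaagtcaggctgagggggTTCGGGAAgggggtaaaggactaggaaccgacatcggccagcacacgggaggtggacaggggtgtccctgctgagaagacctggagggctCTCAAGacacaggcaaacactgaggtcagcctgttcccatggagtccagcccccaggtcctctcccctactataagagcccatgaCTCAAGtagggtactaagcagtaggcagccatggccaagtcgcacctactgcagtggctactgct
Abca3: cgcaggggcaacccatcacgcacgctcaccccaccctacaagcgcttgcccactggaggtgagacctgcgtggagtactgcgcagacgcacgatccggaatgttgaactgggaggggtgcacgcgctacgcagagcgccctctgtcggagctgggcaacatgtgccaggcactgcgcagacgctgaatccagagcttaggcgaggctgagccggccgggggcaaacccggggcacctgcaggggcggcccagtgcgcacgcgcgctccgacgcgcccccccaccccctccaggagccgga
The Sftpa1 window held TATAAA at 30 to 25 bases before the start and CTCAAG at 166 to 161 bases before it. The Sftpb window held CTCAAG at 100 to 95 and at 15 to 10 bases before the start, and a C/EBP core at 190 to 183 bases. The Abca3 window held none of the 4 motifs. Of 9 genes, 6 had a window in the RefSeq table, and Sftpc, Sftpd and Napsa had no entry there. CTCAAG was found in 2 of the 6 windows and in 15.9% of all 32851 windows, TATAAA in 1 and 13.6%, the FOXA core in 1 and 3.65%, and the C/EBP core in 2 and 40.7%. These matches are a description of the letters and not of binding. The motifs printed here do not overlap one another.

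Of the surfactant and type II genes, only Abca3 passed the test on its lead, at 1.23-fold higher in LC-HFD than in LC-RD lungs. Its other probe sets had log2 differences of -0.11 and -0.49, so no direction is given for Abca3. The Sftpc lead stood at the top of the array's range in both groups. By limma with Benjamini-Hochberg adjustment over all probe sets, and a threshold of adjusted p under 0.05, 1 of the 8 leads was higher in LC-HFD lungs, 0 were lower and the other 7 missed the threshold. Across all genes 11.1% of leads were higher and 16.2% lower. Among the 775 leads with a mean log2 signal of at least 10, where all 8 of these leads lie, the shares were 9.16% and 10.6%. The median log2 difference (LC-HFD minus LC-RD) of the 8 leads was -0.01, with a range of -0.17 to 0.30, against 0.02 over all gene leads and -0.03 over the 775 bright ones. Without Sftpc, the median of the other leads was -0.02. Without adjustment, 2 leads were higher and 1 lower at a limma p under 0.05. The share of all gene leads at that unadjusted threshold was not computed, so this count has no background beside it. The methods' t-test with the same adjustment called 1 lead higher and 1 lower, where it called 17.7% of all probe sets in either direction. The LC-HFD and LC-RD values did not overlap on 3 of 8 leads, against 49.1% of all gene leads, 63.1% of the 775 bright leads and 43.8% of all probe sets, so non-overlap was no more common among these leads.

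**Figure D1:**
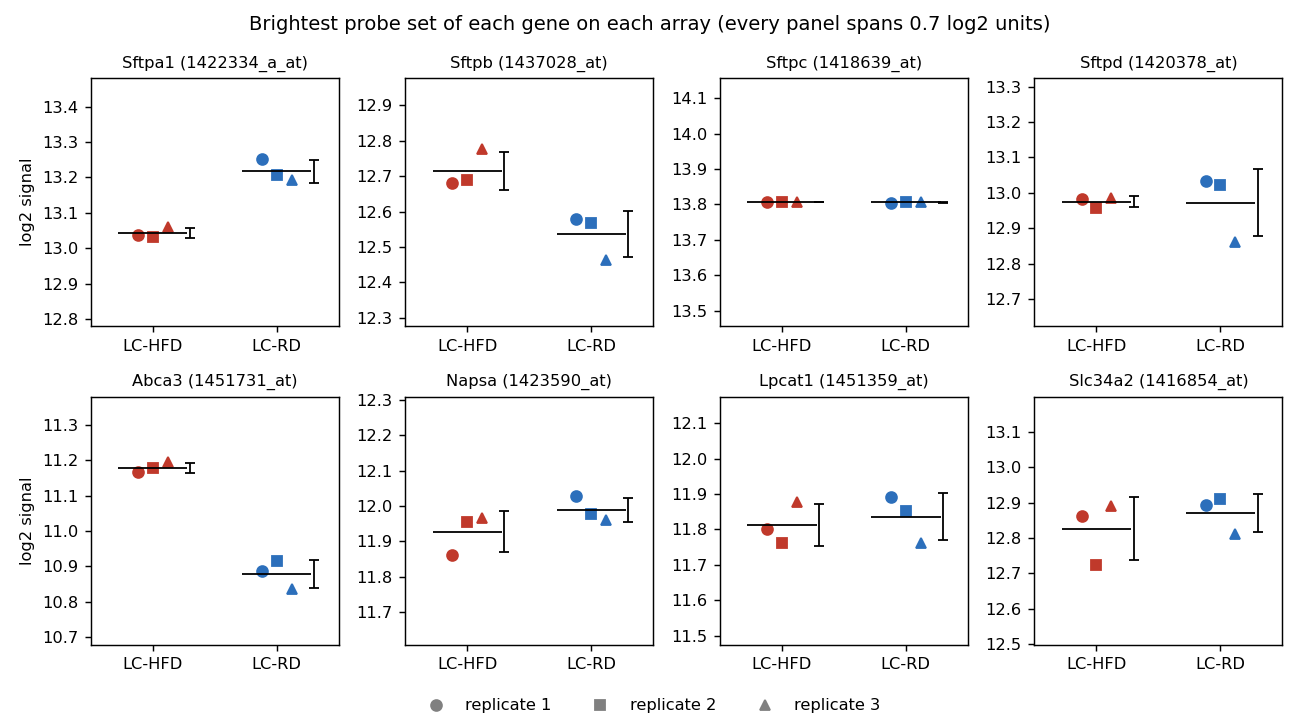
The log2 signal of the lead probe set of each of the 8 genes is plotted for the 3 LC-HFD arrays (red) and the 3 LC-RD arrays (blue), with the mean as a line and the SD as a bar beside it, and every panel spans the same 0.7 log2 units. The groups lie apart for Sftpa1, Sftpb and Abca3, and the 6 Sftpc points lie within 0.0016 of one another.

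Of the genes for secreted surfactant proteins, neither Sftpa1 (SP-A), Sftpb (SP-B) nor Sftpd (SP-D) passed the test. The Sftpa1 lead (probe set 1422334_a_at, a suffix for probes that match several transcripts of the same gene) read 13.04, 13.03 and 13.06 log2 units in LC-HFD lungs, against 13.25, 13.21 and 13.19 in LC-RD lungs. The means were 13.04 ± 0.0152 in LC-HFD and 13.22 ± 0.0316 in LC-RD (SD, n = 3 each). The difference of -0.17 (95% interval -0.33 to -0.02, before adjustment) did not pass the limma test (adjusted p = 0.10). The other Sftpa1 probe set, 1429626_at, read 12.12, 12.10 and 12.19 in LC-HFD lungs and 12.33, 12.28 and 12.28 in LC-RD lungs, with a difference of -0.16 (adjusted p = 0.128). Both Sftpa1 probe sets thus had non-overlapping groups and nearly the same difference.

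The Sftpb probe set (1437028_at) read 12.68, 12.69 and 12.78 in LC-HFD lungs, against 12.58, 12.57 and 12.46 in LC-RD lungs. All LC-HFD values lay above all LC-RD values. The difference was 0.18 (95% interval 0.00 to 0.35, before adjustment), and it did not pass either (limma, adjusted p = 0.122). The side of the threshold on which these values fell changed with the setting. Fitted with a spread that follows signal (intensity trend and robust variance), the adjusted p was 0.000169 for the Sftpa1 lead, 0.00152 for the other Sftpa1 probe set and 0.00187 for Sftpb. With only probe sets of mean log2 signal of at least 6 in the fit, they were 0.0151, 0.0255 and 0.0274. The methods' t-test gave 0.0161 and 0.0448 for the Sftpa1 probe sets and 0.0845 for Sftpb.

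Sftpd, the gene for SP-D, read 12.98, 12.96 and 12.99 in LC-HFD lungs and 13.03, 13.02 and 12.86 in LC-RD lungs (1420378_at). The groups overlapped, because LC-RD replicate 3 lay below all LC-HFD lungs and the other LC-RD lungs above them. The difference was 0.00 with a 95% interval of -0.18 to 0.18 (limma, adjusted p = 0.987).

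Sftpc encodes SP-C, the surfactant protein most particular to type II cells. Its lead (1418639_at) held the highest value of all 45101 probe sets on each of the 6 arrays, at 13.81 log2 units, with a range of 0.0016 over the arrays. Its SD came to 0.000473 over the LC-HFD arrays and 0.000924 over the LC-RD arrays, against a median SD over all probe sets of 0.137 in LC-HFD and 0.0944 in LC-RD lungs. The difference was 0.00 (95% interval -0.15 to 0.15, adjusted p = 0.998 by limma). The SE behind this interval, 0.0655, comes from the spread that limma shares over all probe sets. It does not measure the spread of this probe set among the mice. Whether the array could register a change of Sftpc RNA at the top of its range was not tested, and the value says nothing of equal Sftpc RNA in the groups. The genes with the highest Pearson correlation with it over the 6 arrays were Washc4 (0.950), 4930402H24Rik (0.939), Ndufaf2 (0.916), Zfp512b (0.884) and Pla2g1b (0.880). Over a lead range of 0.0016, this ranking says nothing of a pattern shared with Sftpc RNA.

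The other Sftpc probe set (1438290_x_at) gave a different reading. It read 3.53, 3.58 and 4.26 in LC-HFD lungs and 2.38, 2.48 and 2.16 in LC-RD lungs, without overlap. The difference on the log2 scale was 1.45 (SE 0.201, 95% interval 0.98 to 1.92, limma, adjusted p = 0.00321). It was called in all 13 alternative settings that tested it. Its suffix marks probes that may also match other sequences, and its signal ranked between 26003 and 31089 of 45101 on LC-HFD arrays and between 38443 and 41362 on LC-RD arrays. Whether it lay above background was not tested, so no fold is read from it for Sftpc RNA. It was the 1 of the 17 probe sets that was both called and over 2-fold, against 1.73% of all probe sets.

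Abca3, which encodes the lipid transporter that fills lamellar bodies, was the only gene whose lead passed. The lead (1451731_at) read 11.17, 11.18 and 11.19 in LC-HFD lungs, against 10.89, 10.91 and 10.84 in LC-RD lungs. The LC-HFD lungs lay close together and above every LC-RD lung. The means were 11.18 ± 0.0143 in LC-HFD and 10.88 ± 0.0393 in LC-RD (SD, n = 3 each), a difference of 0.30 (SE 0.0679, 95% interval 0.14 to 0.46), or 1.23-fold higher (limma, adjusted p = 0.0189). The call was lost when any 1 LC-RD array was left out (limma, adjusted p from 0.0565 to 0.0759). It was also lost when the 3′ to 5′ gradient of the array's control genes was a covariate (0.121). The difference stayed between 0.28 and 0.32 in all 16 alternatives. Calls over all probe sets fell in these settings too, from 25% to 13%, 12.9% and 17.8% without LC-RD replicates 1, 2 and 3. With the covariate the share was 7.9%.

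The other Abca3 probe sets did not follow the lead. Probe set 1425496_at, annotated to the same database sequence as the lead, read 9.69, 9.72 and 9.72 in LC-HFD lungs and 9.81, 9.85 and 9.81 in LC-RD lungs, a difference of -0.11 (adjusted p = 0.252). Probe set 1451869_at read 5.32, 5.09 and 5.48 in LC-HFD lungs and 5.71, 5.87 and 5.78 in LC-RD lungs, a difference of -0.49, and was called lower (limma, adjusted p = 0.0195). That call too was lost without any 1 LC-RD array (0.0525 to 0.0769), with the 3′ minus 5′ covariate (0.198) and with the methods' t-test (0.0715). Tested directly, both probe sets differed from the lead in their LC-HFD minus LC-RD difference, by -0.41 (adjusted p = 0.0222) and -0.79 (adjusted p = 0.00569). One direction for Abca3 therefore cannot be given from these probe sets.

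Lpcat1 encodes the acyltransferase that makes the saturated phosphatidylcholine of surfactant, and it too had probe sets that disagreed. Its lead (1451359_at) read 11.80, 11.76 and 11.88 in LC-HFD lungs and 11.89, 11.85 and 11.76 in LC-RD lungs, with overlap and a difference of -0.02 (95% interval -0.20 to 0.16, limma, adjusted p = 0.850). Probe set 1424460_s_at had a difference of -0.05 (adjusted p = 0.651). Probe set 1424459_at, annotated to the same database sequence as both, read 10.69, 10.72 and 10.64 in LC-HFD lungs and 11.23, 11.18 and 11.12 in LC-RD lungs. These groups did not overlap, and the difference of -0.50 (SE 0.0713), 1.41-fold lower, passed the limma test (adjusted p = 0.00374) and all 15 alternatives. It differed from the lead by -0.47 (adjusted p = 0.0178).

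A further pair of Lpcat1 probe sets shares another database sequence and has low signal. Probe set 1420294_at read 3.01, 3.58 and 3.00 in LC-HFD lungs and 3.69, 3.82 and 3.82 in LC-RD lungs, and was called lower, with a difference of -0.58 (limma, adjusted p = 0.0368). The call was lost without any 1 LC-RD array and without LC-HFD replicate 1 or 3 (adjusted p from 0.0812 to 0.113), and with the methods' t-test (0.129). Probe set 1420293_at read 4.72, 4.33 and 4.60 in LC-HFD lungs and 4.60, 5.27 and 4.95 in LC-RD lungs, a difference of -0.39 (adjusted p = 0.155).

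Napsa encodes napsin A, an aspartic protease that helps process SP-B. Its lead (1423590_at) read 11.86, 11.96 and 11.97 in LC-HFD lungs and 12.03, 11.98 and 11.96 in LC-RD lungs, with overlap and a difference of -0.06 (95% interval -0.23 to 0.11, limma, adjusted p = 0.554). Its other probe set (1430744_at) read 7.34, 7.14 and 7.43 in LC-HFD lungs and 7.66, 7.53 and 7.57 in LC-RD lungs, without overlap and with a difference of -0.29 (adjusted p = 0.0695). Slc34a2 encodes the sodium-phosphate cotransporter of the type II cell surface. It read 12.86, 12.72 and 12.89 in LC-HFD lungs and 12.89, 12.91 and 12.81 in LC-RD lungs (1416854_at), with overlap and a difference of -0.05 (95% interval -0.23 to 0.14, adjusted p = 0.696).

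**Figure D2:**
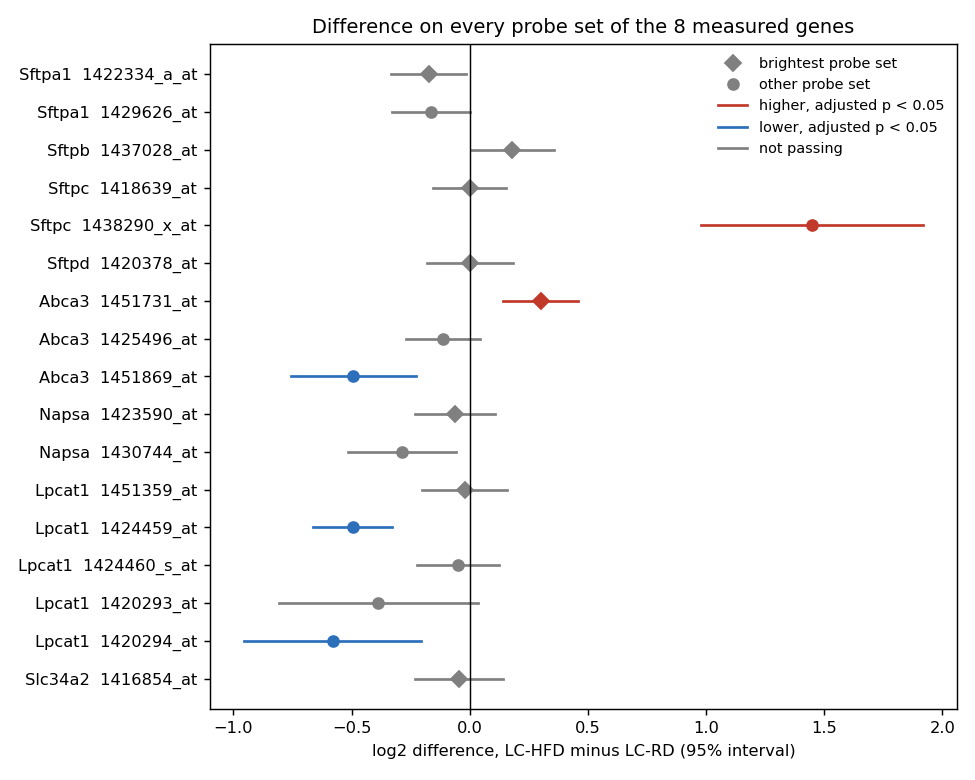
The log2 difference (LC-HFD minus LC-RD) of all 17 probe sets is plotted with its 95% interval before adjustment, with leads as diamonds and other probe sets as circles, in red where higher and in blue where lower at an adjusted p under 0.05. Of the 17, 2 were higher and 3 lower, and only the dim Sftpc probe set exceeded 2-fold.

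Over all 17 probe sets, 2 passed as higher and 3 as lower while 12 missed the threshold, against 11.3% higher and 13.6% lower among all probe sets. The LC-HFD and LC-RD arrays were apart on 10 of the 17, against 43.8% of all probe sets. The median difference was -0.06, against 0.04 over all probe sets. The 9 probe sets that are not leads had a median difference of -0.29. Of these 9, 4 differed from their own lead (limma on the difference within each array, adjusted over 16752 such pairs), against 19.8% of all pairs. They were the second Sftpc probe set, both further Abca3 probe sets and Lpcat1 probe set 1424459_at. The Sftpc lead had a range of only 0.0016, so the Sftpc pair repeats the 1.45 of the second probe set. That pair does not show that 2 readings of Sftpc RNA changed unequally.

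**Figure D3:**
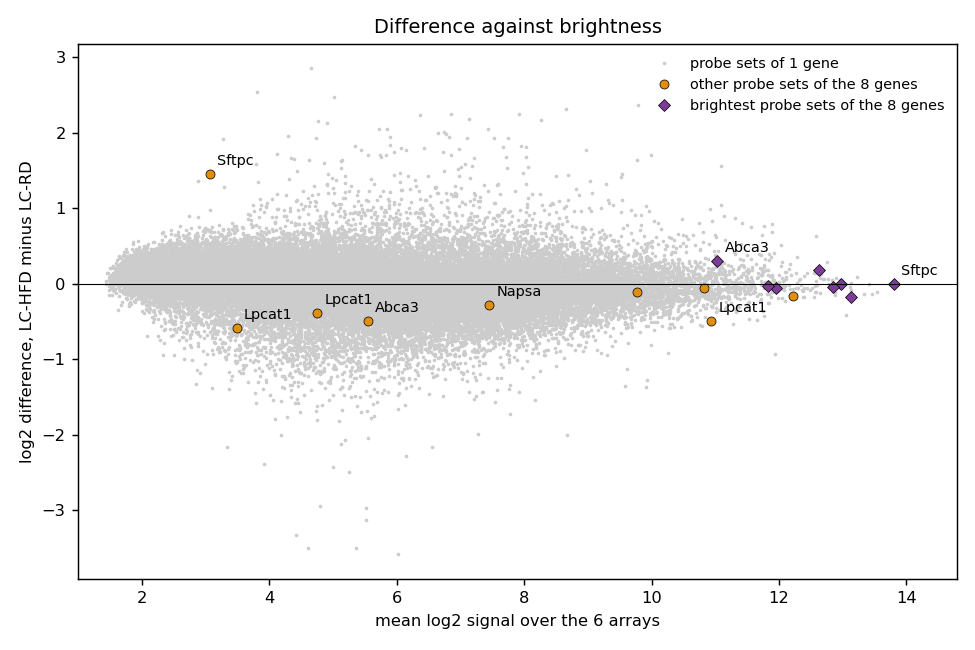
The log2 difference (LC-HFD minus LC-RD) is plotted against the mean log2 signal over the 6 arrays for every probe set of 1 gene (gray), with the 8 leads as purple diamonds and the 9 other probe sets as orange circles. The leads sit at the bright end between differences of -0.17 and 0.30, with Sftpc farthest right.

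The leads also shared an order among the arrays within each diet. In 7 of the 8, LC-HFD replicate 3 was the highest of the LC-HFD arrays and LC-RD replicate 3 the lowest of the LC-RD arrays. Over all gene leads, LC-HFD replicate 3 was highest in 29.8%, LC-RD replicate 3 lowest in 41.9% and both held in 13.0%. Sftpc was the exception. This order was noticed after the values were seen and is given as a description.

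The array's own controls differed between the groups, and no member value can be separated from that. The 18 hybridization control probe sets, which are spiked in at fixed amounts, averaged 11.5 ± 0.0254 in LC-HFD and 10.0 ± 0.0168 in LC-RD (SD, n = 3 each), and the 24 poly-A controls differed by -0.42. The 18S rRNA probe sets averaged 7.61 in LC-HFD and 12.5 in LC-RD lungs. Beta-actin differed by 0.03 and Gapdh by 0.24, and the 3′ to 5′ gradient of RNA signal over 4 control genes averaged 1.65 ± 0.0610 on LC-HFD arrays and 1.73 ± 0.0293 on LC-RD arrays. The exact two-sided permutation p was 0.1 for each of these but beta-actin (0.2), and 0.1 is the smallest that 3 arrays against 3 can give. With these 6 arrays, the diet and the handling of the arrays cannot be told apart.

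The leads of genes around these members in the surfactant system had differences from -1.56 to 1.26. They are more genes, many dimmer than the member leads, so this range is not comparable with that of the members. The median absolute difference was 0.128 over the 775 bright leads and 0.204 over all gene leads. Of 19 measured genes of surfactant lipid synthesis and turnover, 2 were higher, 8 lower and 9 did not pass, with a median difference of -0.16, against 11.1% higher and 16.2% lower over all gene leads. Chpt1, which completes phosphatidylcholine synthesis, averaged 8.58 ± 0.111 in LC-HFD and 9.02 ± 0.0102 in LC-RD lungs (difference -0.44, adjusted p = 0.00888). The fatty acid carrier Fabp5 differed by -0.47 (adjusted p = 0.00560) and the desaturase Scd1 by -0.41 (adjusted p = 0.00581). The other Scd1 probe set differed by -1.35 (limma, adjusted p = 0.000198). Pcyt1b, an isoform of the enzyme that makes CDP-choline, was higher by 0.57 (adjusted p = 0.0225) at low signal, with 4.05 in LC-HFD and 3.48 in LC-RD lungs, and its other probe set differed by -0.13.

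Of 10 genes of surfactant processing, lamellar body and secretion, 1 passed as higher, 1 as lower and 8 missed the threshold (median 0.01), which is near the 11.1% and 16.2% over all gene leads. Pgc, a pepsinogen that also processes SP-B, had low signal, with 4.34 in LC-HFD and 3.77 in LC-RD lungs (limma, adjusted p = 0.0254). Rab27a, a GTPase of granule secretion, differed by -0.47 on its lead (adjusted p = 0.00831), while its 4 probe sets ranged from -0.47 to 0.02. Of 16 other type II markers, 2 were higher, 3 lower and 11 did not pass (median -0.04), also set against 11.1% and 16.2%. The called ones with the largest differences were Bex2 (-1.03), Acoxl (-0.95), Egfl6 (-0.53) and Mlc1 (0.31), with adjusted p of 0.000840, 0.000472, 0.00501 and 0.0384 by limma.

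The 11 transcription factors known to act on surfactant genes were mixed, with 4 higher, 3 lower and 4 that did not pass (median -0.02), where all gene leads had 11.1% higher and 16.2% lower. Nkx2-1, the factor whose core motif stands in the Sftpa1 and Sftpb windows above, averaged 6.84 ± 0.0709 in LC-HFD and 5.58 ± 0.147 in LC-RD lungs (SD, n = 3 each), a difference of 1.26 (limma, adjusted p = 0.000429). Foxa2 differed by -0.63 (adjusted p = 0.00143) and Cebpd by -0.84 (adjusted p = 0.000861). Cebpa, the gene of another C/EBP factor, was higher by 0.56 (limma, adjusted p = 0.00314), with 10.27 in LC-HFD and 9.71 in LC-RD lungs. Klf5 was higher by 0.72 on its lead (adjusted p = 0.00134), but its 3 probe sets ranged from -0.98 to 0.72.

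Of 8 genes of surfactant clearance by macrophages, 2 passed as higher, 1 as lower and 5 missed the threshold (median 0.10), again beside 11.1% and 16.2% of all gene leads. Csf2, the growth factor GM-CSF that alveolar macrophages need to clear surfactant, averaged 4.90 ± 0.0747 in LC-HFD and 6.46 ± 0.116 in LC-RD lungs, a difference of -1.56 (adjusted p = 0.000175). The scavenger receptor Marco was higher by 0.77 (adjusted p = 0.00101) and Spi1, which encodes the macrophage factor PU.1, by 0.55 (adjusted p = 0.00334). Members of these lists were chosen with earlier results of these arrays known, so their counts are descriptions.

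**Figure D4:**
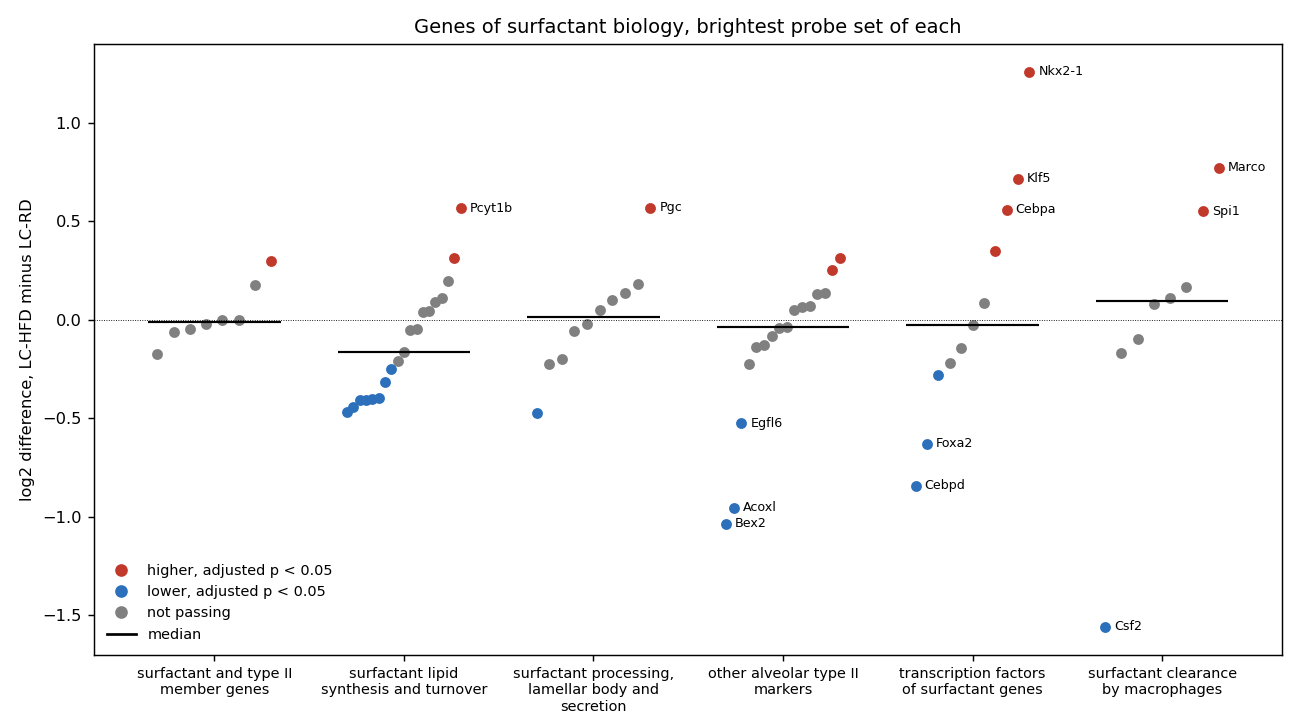
The log2 difference (LC-HFD minus LC-RD) of the lead of each measured gene is plotted for the 8 surfactant and type II genes and for 5 lists around them, sorted within a list, with the median as a line. Red points were higher and blue points lower at an adjusted p under 0.05. The medians lie between -0.16 and 0.10 and the single genes between -1.56 and 1.26.

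The tissue was checked with markers fixed for other lung cells. The type II markers fixed for this check are themselves members, read on the same leads, so they give no separate check. Of 8 type I markers 1 was higher (Aqp5) and 2 lower (Igfbp2, Rtkn2), with means of 10.4 on LC-HFD and 10.5 to 10.6 on LC-RD arrays. Of 6 club cell markers 2 were higher (Scgb3a1, Bpifa1) and 3 lower (among them Cckar and Scgb3a2), with means of 9.29 to 9.34 on LC-HFD and 9.38 to 9.43 on LC-RD arrays. Bpifa1 had low signal, with 4.44 in LC-HFD and 3.95 in LC-RD lungs. Of 8 macrophage markers 2 were higher (Fabp4, Chil3), with means of 9.39 to 9.48 on LC-HFD and 9.40 to 9.44 on LC-RD arrays. The 4 Fabp4 probe sets ranged from -0.67 to 0.32. Of 4 measured leukocyte markers 2 were lower (S100a8, Ms4a1), with means of 7.27 to 7.44 on LC-HFD and 7.73 to 7.84 on LC-RD arrays. Of 5 fibroblast markers 1 was higher (Col1a1) and 3 lower (Inmt, Pdgfra, Dcn), with means of 9.26 to 9.29 on LC-HFD and 9.43 to 9.45 on LC-RD arrays. Of 5 endothelial markers 1 was higher (Pecam1) and 2 lower (Tek, Cldn5), with means of 8.18 to 8.34 on LC-HFD and 8.28 to 8.32 on LC-RD arrays. Of 4 measured ciliated cell markers 1 was lower (Ccdc153), with means of 6.80 to 7.14 on LC-HFD and 6.82 to 6.96 on LC-RD arrays. Of 3 measured adipocyte markers 1 was higher (Adipoq, with 3.32 in LC-HFD and 2.62 in LC-RD lungs), with means of 3.80 to 3.90 on LC-HFD and 3.37 to 3.67 on LC-RD arrays. All 3 adipocyte markers had low signal, with LC-RD means under 6. These counts stand beside 11.1% higher and 16.2% lower over all gene leads. The mean signal of the type I, club cell, fibroblast, leukocyte and adipocyte markers did not overlap between the groups. Among single gene leads, 49.1% did not overlap either. Whether these differences reflect cell composition, and their part in the member values, was not tested.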

How the data were processed

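The authors hybridized total lung RNA to Affymetrix whole-genome mouse arrays and deposited 1 table of log2 values, background-corrected and normalized by GCRMA per the submitters' processing notes, whose version is not given in the sources used here. All 45101 probe sets had medians of 4.79 to 4.84 on the 6 arrays, 34.8% to 36.1% of values reached 6, and no per-sample column was left unused. The 64 control probe sets were kept apart. Of the tested probe sets, 34945 belong to 1 gene (34754 matched to RefSeq), and 932 to several, which were given no name.

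The test of LC-HFD against LC-RD was limma's (version 3.58.1, R 4.3.3, two-sided, at its default settings), adjusted by Benjamini-Hochberg over 45037 probe sets, after a test on simulated data. One mouse gave 1 array, and 3 arrays per group limit the precision. Named genes are all members, up to 4 called genes per list or marker set by size of difference, and the 5 genes most like the Sftpc lead. Cebpa was named in addition, beside Cebpd. The members and lists were chosen with earlier results of these data known. Alternatives were the methods' t-test, an intensity trend, array weights, quantile normalization, median centering, filters at 4 and 6, a replicate block, a 3′ minus 5′ covariate, a 2-fold threshold, other choices of the lead and each array left out. The bright-gene background and the median without Sftpc were added after the data were seen. Figures used Python 3.11.15 and matplotlib 3.10.9.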

Additional observations from a re-analysis of the deposited data

How the results depend on the processing

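No member value reversed its direction where it was called. The leads called higher (1) became 2 with the intensity trend and robust variance, 2 with a mean log2 of at least 6, 0 with the replicate block, 0 with the 3′ minus 5′ covariate, 0 with the 2-fold threshold, and 0 to 1 with 1 array left out. Leads called lower (0) became 1 with the methods' t-test, the intensity trend, either filter on mean signal (4 or 6) and the mean over all probe sets of a gene, and stayed 0 with 1 array left out. Of all 17 probe sets, those called higher (2) became 1 with a mean log2 of at least 4, with the replicate block, with the covariate and with the 2-fold threshold, and 1 to 2 with 1 array left out. Those called lower (3) became 6 with the intensity trend, 0 with the 2-fold threshold and 1 to 3 with 1 array left out. Probe sets that differ from their lead (4) became 2 with a mean log2 of at least 6, 2 with the replicate block and 2 to 5 with 1 array left out. These counts stand beside shares called over all tested probe sets of 25% in the reported fit, 30.6% with the intensity trend, 17.7% with the methods' t-test, 42.5% and 55% with the filters at 4 and 6, and 7.9% with the covariate. Without LC-HFD replicates 1, 2 and 3 the shares were 25.6%, 20.8% and 20.5%. Without LC-RD replicates 1, 2 and 3 they were 13%, 12.9% and 17.8%. Replicate numbers did not pair the arrays (correlations of same-numbered deviations -0.04, -0.09 and -0.03), and under the replicate block the Abca3 lead had an adjusted p of 0.0667 and 7906 of all 45037 probe sets were called, against 11250. Quantile normalization and median centering shifted the median difference of all probe sets by -0.03 and 0.02. The sign turned on leads with no call only: Sftpc in 1, Sftpd in 4, Lpcat1 in 3 and Slc34a2 in 2 of 16 alternatives. The causes were not tested.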
